A study of Mus musculus with 6 samples.

Results

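Immediate early genes are switched on within minutes of a stimulus, without new protein synthesis. The 10 genes described here are the immediate early genes Nr4a1, Nr4a2, Nr4a3, Sik1, Per1, Fos, Fosb, Egr1, Junb and Rgs2, which were listed by name because their promoters are known to carry cAMP response elements (CRE) or serum response elements (SRE). All 10 were found among the 23557 genes measured. They were followed in tumors of the mouse colon carcinoma line CT26, taken from animals that had received the kinase inhibitor H89 or saline. Mice were 7-week-old BALB/c females bearing tumors from 500000 CT26 cells injected under the skin. From day 6, H89 was given into the peritoneum at 10 mg/kg, 2 times a week, and control mice received NaCl. Tumors were frozen on day 14, and total RNA of 3 tumors per group was sequenced. The interval between the last injection and sampling is not given in the sources used here.

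In the classical pathway, cAMP activates protein kinase A, which phosphorylates the factor CREB on CRE promoters. SRE promoters are bound by serum response factor and its ETS partners, which respond to the MAP kinases ERK. H89 is best known as an inhibitor of protein kinase A and also inhibits other kinases. Immediate early mRNAs are short-lived, so a bulk level reflects recent transcription and is known to be sensitive to how tissue is handled.

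The library totals were 29067921, 27067349 and 27883614 estimated counts in NaCl tumors 1 to 3, and 28548727, 31958793 and 30936962 in H89 tumors 1 to 3. Levels are given as CPM, counts per 1000000 of these totals. The lowest member count was 19 (Nr4a3 in NaCl tumor 3). Of the listed genes, 10 of 10 passed the filter of a mean of at least 0.5 CPM, as did 13118 genes in all. In edgeR's quasi-likelihood test with Benjamini-Hochberg adjustment over these 13118 genes, 0 of the 10 members had an adjusted p under 0.05, against 1.59% of all genes tested (208 genes, of which 95, or 0.724%, were lower with H89). DESeq2, voom and limma on quantile-normalized values also gave 0 of 10, where they called 10.6%, 1.68% and 0.61% of all genes. At an unadjusted p under 0.05, 1 member was called, Junb, which was lower with H89; 25.0% of all genes passed this threshold in either direction and 11.9% as lower. The CPM of the groups did not overlap for 0 of the 10 members, against 30.4% of all genes tested. The members' counts thus lay at or below the background of the same comparison. A p that misses a threshold does not show that levels were equal, and the intervals given with each gene show the differences these tumors still allow.

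**Figure D1:**
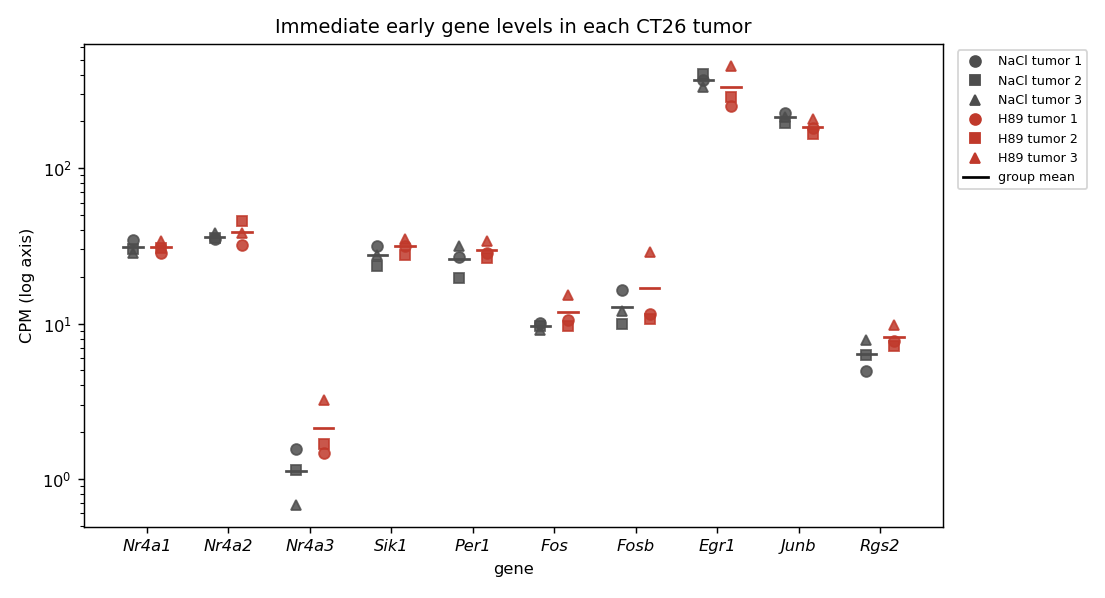
CPM of each of the 10 genes in each tumor on a log axis, NaCl in grey and H89 in red, with 1 symbol per tumor and a bar at each group mean. The groups overlap for each of the 10 genes, and H89 tumor 3 (red triangle) is the highest tumor for 7 of them.

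Levels between genes were compared per length, as CPM per kilobase of the longest coding transcript in the GENCODE M21 annotation. By this measure Junb stood at 110 ± 12.9 CPM per kilobase (SD over 6 tumors) and Egr1 at 78.2 ± 16.6. Which of them came first depended on the length taken: with the shortest coding transcript, a choice made after seeing the data, Egr1 was at 116 and Junb at 110, and by plain CPM Egr1 was at 351 and Junb at 199. With the longest transcript they together made up most of the members' summed level (46.8% and 33.3%). Nr4a1 (12.2 ± 0.98) came next, 6.43-fold below Egr1. Nr4a2 (10.5 ± 1.29), Sik1 (6.53 ± 0.87), Per1 (5.96 ± 1.08), Fos (5.09 ± 1.08), Fosb (3.95 ± 1.90) and Rgs2 (2.42 ± 0.53) followed. Nr4a3 was the least abundant, at 0.28 ± 0.15 CPM per kilobase, and it was last by the other measures too. The order of the genes between them changed with the shortest transcript, where Nr4a1 was at 90.2 and Per1 at 56.2 CPM per kilobase. Those 2 values rest on annotated transcripts of only 344 bases (Nr4a1) and 496 bases (Per1), against 2553 and 4671 for the longest. With the longest transcript, neighbours in this order did not differ beyond the range of the tumors, except that Egr1 lay above Nr4a1, Nr4a2 above Sik1, and Rgs2 above Nr4a3 without overlap. Within each tumor, Junb was also above Egr1 and Fosb above Rgs2 in 6 of 6 tumors, and each other pair of neighbours with overlapping ranges kept its order in 5 of 6.

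The promoters by which these genes are grouped were examined for the motifs named in the grouping and for an AP-1 site and a TATA box. The RefSeq promoter table for GRCm38.p6, with 250 bases before and 50 after each start, held 9 windows for 8 of the 10 members (2 for Per1), all but Sik1 and Egr1. The full CRE palindrome TGACGTCA was in 0 of the 9 windows, against 1.79% of all 32851 promoters in the table. Its core TGACG, searched on both strands and also contained in the full palindrome, was in 9 of the 9 windows, with 20.8% as the share of all promoters, and 5 of the 9 held it at 2 or more positions, with 5.01% as that share. The genes were listed for CRE or SRE promoters, so these counts describe the windows and do not test the grouping. The CArG box, the motif of serum response factor, was in 0 of 9 windows, against 1.63%, and the AP-1 site TGACTCA in 0 of 9, against 5.20%. The letters TATAAA were in 3 of 9, against 13.6%. The match of Fos lay at bases -33 to -28 from the start. That of Nr4a2 lay at -164 to -159 on the opposite strand, and that of Junb at 1 to 6, after the start. These are matches of letters in short windows, and an absent match says nothing of sites further upstream.

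Of the 8 genes, 6 held TGACG within the 120 bases before the RefSeq start. These stretches are shown 5′ to 3′ on the gene's strand, with the core, or its reverse complement, in capitals, because they show where the core lies in each gene. They lie at chr12:85473770-85473889 (Fos, plus strand), chr7:19310046-19310165 (Fosb, minus strand), chr8:84978749-84978868 (Junb, minus strand), chr15:101266726-101266845 (Nr4a1, plus strand), chr2:57124004-57124123 (Nr4a2, minus strand) and chr1:144004150-144004269 (Rgs2, minus strand). In the GENCODE annotation, 6 bases of the Fosb stretch and 12 of the Rgs2 stretch lie in exons, and the Nr4a1 stretch lies within the gene's span.
Fos: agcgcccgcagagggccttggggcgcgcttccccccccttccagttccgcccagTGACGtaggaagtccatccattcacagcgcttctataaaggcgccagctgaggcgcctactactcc
Fosb: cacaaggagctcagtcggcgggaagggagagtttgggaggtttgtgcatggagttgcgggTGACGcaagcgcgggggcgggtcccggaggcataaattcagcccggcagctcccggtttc
Junb: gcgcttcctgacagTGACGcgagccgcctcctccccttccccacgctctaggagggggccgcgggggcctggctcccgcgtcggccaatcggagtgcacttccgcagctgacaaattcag
Nr4a1: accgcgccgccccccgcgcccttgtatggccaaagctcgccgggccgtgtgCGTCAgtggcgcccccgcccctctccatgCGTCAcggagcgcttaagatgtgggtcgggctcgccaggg
Nr4a2: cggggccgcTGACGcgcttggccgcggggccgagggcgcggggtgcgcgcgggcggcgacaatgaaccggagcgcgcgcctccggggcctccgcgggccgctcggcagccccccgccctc
Rgs2: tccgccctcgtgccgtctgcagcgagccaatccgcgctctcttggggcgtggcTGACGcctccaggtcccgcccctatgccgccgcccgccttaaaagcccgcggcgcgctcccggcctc

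The NR4A genes encode orphan nuclear receptors that act as early transcription factors. Nr4a1 (Nur77; chr15:101254269-101274795 in GRCm38) was measured at 34.3, 30.2 and 28.7 CPM in NaCl tumors 1 to 3 and at 28.6, 30.6 and 33.9 CPM in H89 tumors 1 to 3. The groups spanned nearly the same range. The log2 fold change was -0.08 (standard error 0.10, 95% interval -0.32 to 0.17, edgeR adjusted p = 0.683), which bounds the ratio of H89 to NaCl between 0.80 and 1.12. Nr4a2 (Nurr1; chr2:57106830-57124003) stood at 34.8, 35.5 and 38.1 CPM in NaCl and at 32.3, 45.7 and 38.3 CPM in H89 tumors. H89 tumors held both the lowest and the highest value. Its log2 fold change was 0.03 (standard error 0.12, 95% interval -0.25 to 0.31, edgeR adjusted p = 0.907). In Nr4a1, Nr4a2 and Nr4a3, TGACG occurred at 4 positions each of the promoter window.

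Nr4a3 (Nor1; chr4:48045153-48086447), the third receptor of the family, had the largest estimate among the members. Nr4a3 reached 1.55, 1.15 and 0.68 CPM in the NaCl tumors and 1.47, 1.69 and 3.20 CPM in the H89 tumors. NaCl tumor 3 was lowest and H89 tumor 3 highest, and H89 tumor 1 lay inside the NaCl range. The log2 fold change was 0.83 (standard error 0.40, 95% interval -0.09 to 1.74, edgeR unadjusted p = 0.0703, adjusted p = 0.238). Without H89 tumor 3 it was 0.44 (edgeR adjusted p = 0.542). The exact two-sided permutation test of log2(CPM + 0.5) gave p = 0.2 for Nr4a3, where 0.1 is the smallest p that 3 tumors against 3 can give.

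Fos and Fosb encode partners of the Jun proteins in the AP-1 factor. Fos (chr12:85473890-85477273) was at 10.1, 9.68 and 9.07 CPM in NaCl and at 10.5, 9.70 and 15.3 CPM in H89 tumors. Apart from H89 tumor 3, the 5 tumors lay close together. H89 against NaCl differed by 0.22 on the log2 scale (standard error 0.18, 95% interval -0.18 to 0.63, edgeR adjusted p = 0.458), and without H89 tumor 3 it was 0.03. Fosb (chr7:19302696-19310051) was at 16.5, 9.98 and 11.98 CPM in NaCl and at 11.5, 10.8 and 28.8 CPM in H89 tumors. H89 tumor 3 stood apart from all other tumors, while H89 tumors 1 and 2 lay within the NaCl range. The log2 fold change of Fosb was 0.32 (standard error 0.37, 95% interval -0.54 to 1.18, edgeR adjusted p = 0.624) and turned to -0.25 without H89 tumor 3.

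Junb (chr8:84974484-84978718), the Jun family member that often restrains c-Jun, was at 228, 195 and 215 CPM in NaCl and at 180, 165 and 209 CPM in H89 tumors. H89 tumors 1 and 2 lay below all NaCl tumors, and H89 tumor 3 lay inside the NaCl range. Its log2 fold change was -0.28 (standard error 0.11, 95% interval -0.53 to -0.02, edgeR unadjusted p = 0.036, adjusted p = 0.174). It was negative under each of 14 other settings, from -0.35 to -0.19, with an adjusted p from 0.106 to 0.404. The exact permutation test gave p = 0.2. With CPM rescaled by edgeR's TMM factors, a setting chosen after seeing the data, the groups of Junb just separated, with a lowest NaCl value of 197.1 and a highest H89 value of 196.4; under that scaling the groups did not overlap for 30.7% of all genes tested. The unadjusted p of Junb rose above 0.05 in 4 of the 6 fits with 1 tumor left out. In 173 bases its exon overlaps an exon of Prdx2 on the opposite strand, and whether the counting used strand is not given in the sources used here, so the reads of that stretch are uncertain.

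Egr1 (chr18:34859823-34864984), a zinc finger factor and a classical SRE gene, was at 369, 405 and 333 CPM in NaCl and at 253, 289 and 455 CPM in H89 tumors. H89 tumors 1 and 2 were the lowest of the 6 and H89 tumor 3 the highest, so that the spread within H89 (SD 108) exceeded that within NaCl (SD 35.8). For Egr1 the estimate on the log2 scale was -0.23 (standard error 0.19, 95% interval -0.66 to 0.21, edgeR unadjusted p = 0.258, adjusted p = 0.478). Without H89 tumor 3 it was -0.49, with an edgeR unadjusted p = 0.00339 and an adjusted p = 0.109, and 2 of 10 members, Egr1 and Junb, then passed an unadjusted p of 0.05, as did 2630 of the 13118 genes tested. Without H89 tumor 1 or 2 the estimate was -0.09 or -0.14.

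Sik1, Per1 and Rgs2 encode proteins that feed back on signalling. Sik1 (chr17:31844250-31855804) is a salt-inducible kinase that holds CREB coactivators in the cytoplasm and is itself inhibited by protein kinase A. It was at 31.7, 23.6 and 27.8 CPM in NaCl and at 31.6, 27.8 and 34.8 CPM in H89 tumors, which amounts to a difference of 0.11 on the log2 scale (standard error 0.14, 95% interval -0.22 to 0.43, edgeR adjusted p = 0.665). Per1 (chr11:69095217-69109960), a repressor of the circadian clock, was at 26.8, 19.5 and 31.4 CPM in NaCl and at 28.6, 26.6 and 34.2 CPM in H89 tumors. Both genes were lowest in NaCl tumor 2 and highest in H89 tumor 3, and their groups overlapped. The log2 fold change of Per1 was 0.13 (standard error 0.18, 95% interval -0.28 to 0.54, edgeR adjusted p = 0.678). Rgs2 (chr1:143999338-144004161), which speeds the inactivation of G protein alpha subunits, was at 4.99, 6.28 and 7.85 CPM in NaCl and at 7.78, 7.20 and 9.73 CPM in H89 tumors. NaCl tumor 3 lay above H89 tumors 1 and 2. Its log2 fold change was 0.30 (standard error 0.20, 95% interval -0.15 to 0.75, edgeR adjusted p = 0.375), and it was 0.16 without NaCl tumor 1 and 0.47 without NaCl tumor 3.

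**Figure D2:**
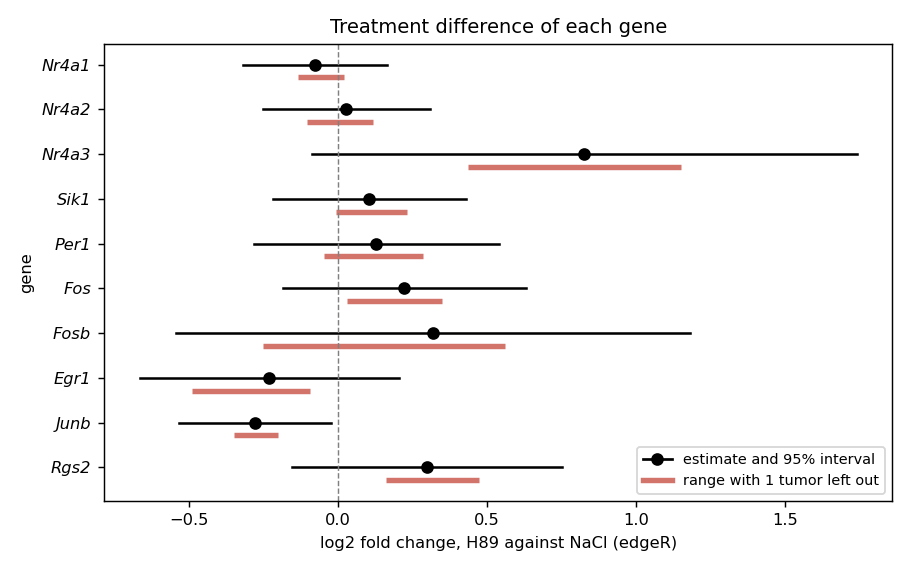
Log2 fold change of each gene, H89 against NaCl, with its 95% interval from edgeR's quasi-likelihood test (black) and the range of estimates when each of the 6 tumors is left out in turn (red). The interval excludes 0 for Junb alone, and the red range crosses 0 for Nr4a1, Nr4a2, Sik1, Per1 and Fosb.

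The members were on average highest in H89 tumor 3. All 10 members were above their own 6-tumor mean in this tumor on the log2(CPM + 0.5) scale, and 7 of 10 had their highest value there, against 30.4% of all genes tested. With CPM rescaled by the TMM factors (chosen after seeing the data), 8 of 10 were above their own mean there and 6 of 10 highest, against 20.0% of all genes tested, with a mean deviation of 0.32. By total-scaled CPM, H89 tumor 3 was highest for 15 of 25 other cAMP or CREB targets, 16 of 37 other immediate early genes and 13 of 28 kinases, factors and coactivators, as well as for 3 of 7 other R4 RGS genes, 4 of 12 hypoxia genes, 3 of 10 other AP-1 subunits, 2 of 7 genes in the list of salt-inducible kinases and deacetylases and 2 of 12 heat shock genes. Some of these genes, Sik2, Sik3, Crem, Fosl2, Rgs16 and Rgs1 among them, stand in more than 1 list, so the counts are not separate. The mean deviation over the members was 0.41 in H89 tumor 3 and lay between -0.17 (NaCl tumor 2) and 0.02 (NaCl tumor 1) in the other tumors. H89 tumors 1 and 2 were at -0.09 and -0.07, within the NaCl range. Of the 45 pairs of members, 37 had a positive Pearson r over the 6 tumors, with a median of 0.37, and the highest was that of Fos and Fosb (r = 0.90, n = 6 tumors). The lowest was that of Nr4a2 and Junb (r = -0.41). These values share the treatment difference. Within groups, 38 pairs were positive with a median of 0.51, and the highest was that of Nr4a1 and Nr4a3 (r = 0.94). Both sets of values are descriptions of 6 tumors that include H89 tumor 3.

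**Figure D3:**
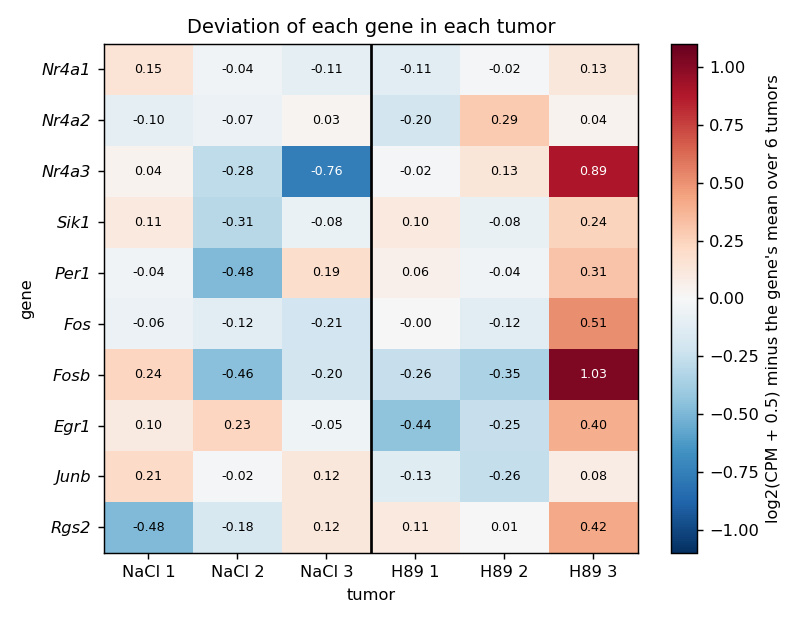
Deviation of each gene in each tumor, as log2(CPM + 0.5) minus the gene's mean over the 6 tumors, with red above and blue below the mean. The column of H89 tumor 3 is above 0 for 10 of 10 genes, up to 1.03 for Fosb.

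The T cell markers were highest in H89 tumor 3 for 6 of 8, but not for Cd4 (4.72 CPM there, 5.20 in NaCl tumor 1 and 7.42 in H89 tumor 2) and Cd2 (4.59 CPM there, 5.82 in H89 tumor 1). The summed level of the 8 T cell markers measured was 33.1, 19.7 and 14.9 CPM in NaCl tumors 1 to 3 and 52.2, 31.4 and 78.2 CPM in H89 tumors 1 to 3, with Lck the most abundant and none at 0 throughout. Cd8a, a coreceptor of cytotoxic T cells, was at 3.48, 2.25 and 2.94 CPM in NaCl and at 8.51, 3.66 and 19.2 CPM in H89 tumors. Of the 8 markers, 8 had a positive log2 fold change (median 1.24). An unadjusted p of 0.05 was passed by 5, Cd3g and Cd5 among them, against 25.0% of all genes tested, and an edgeR adjusted p of 0.05 by 0. In bulk tumors, more cells of a type and more RNA per cell cannot be told apart. The part of T cells in the members' levels was not tested.

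Markers of other cell types in the tumor were measured too. The 8 macrophage markers (C1qa the most abundant) summed to 1264, 2059 and 1839 CPM in NaCl and to 1682, 1722 and 2106 CPM in H89 tumors, with 0 of 8 past an unadjusted p of 0.05; Cd14, Adgre1 and Cd68 had the smallest p. Neutrophil markers summed to 42.5, 31.4 and 35.7 CPM and to 34.1, 45.4 and 54.1 CPM, with Mmp9 the most abundant and Ly6g at 0 throughout; of the 5 tested, 2 had a positive and 3 a negative log2 fold change (median -0.15), from -0.85 for S100a8 to 0.90 for Csf3r, of which Csf3r alone passed an unadjusted p of 0.05, and Cxcr2 did not. The 8 endothelial markers, led by Cdh5, had a median log2 fold change of -0.31, with 2 positive and 6 negative. Of these, Cldn5 and Egfl7 were lower at an unadjusted p of 0.05 and Pecam1 was not. The pericyte and smooth muscle list, led by Pdgfrb, had 3 positive and 5 negative values among 8 tested. It held 1 gene higher (Pdgfrb, 0.24) and 1 lower (Kcnj8, -1.95) at that threshold, and Rgs5 did not pass it. The fibroblast list, led by Col1a2, had 3 of 8 higher at that threshold (Col3a1, Col1a2 and Dcn, from 0.32 to 0.49), with 7 positive and 1 negative in all. Beside these counts, 25.0% of all genes tested passed that threshold in either direction. None of these lists held a gene past an edgeR adjusted p of 0.05, and their part in the members' levels was not tested.

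Markers of tissue next to the tumor were measured as well. Of 8 keratinocyte markers, 7 failed the expression filter, and Krt10 lay between 1.88 and 3.66 CPM. Several skeletal muscle and fat markers were highest in H89 tumor 1, where Acta1 stood at 12.1 CPM against at most 0.55 CPM elsewhere and Cfd at 7.32 CPM against at most 0.44 CPM. In the same lists Tnni2 reached 4.62 CPM and Tnnt3 2.10 CPM in that tumor, while Fabp4 ranged from 10.6 to 34.3 CPM across the tumors. The colon epithelium markers Cdx1, Cdx2 and Vil1 did not exceed 0.32 CPM and Epcam 1.16 CPM in any tumor, and Cdh1 and Cdh17 lay between 1.00 and 2.72 CPM. The colon epithelium markers that were more abundant were the keratins Krt20 and Krt18. Krt20 was present at 94.0 to 98.5 CPM in NaCl and 65.1 to 83.8 CPM in H89 tumors (log2 fold change -0.47, edgeR adjusted p = 0.0627), Krt18 differed by -1.04 (edgeR adjusted p = 0.0653), and Krt19 did not exceed 2.49 CPM. Of the 6 colon epithelium markers tested, 4 had a positive and 2 a negative log2 fold change (median 0.03). The values ranged from -1.04 for Krt18 to 2.56 for Krt19.

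Other immediate early genes of the growth factor and stress response gave other counts than the listed 10. Of 39 such genes 37 were tested, 30 had a negative log2 fold change (81.1%, against 49.4% of all genes tested), and the median was -0.20, against 0.12 for the members and 0.004 for all genes. Of the 37, 5 were lower at an edgeR adjusted p under 0.05, against 0.724% of all genes tested, and 0 were higher. The difference between the lists was not tested. The lists were chosen with earlier results of these data known, so these shares describe the list and are not a test of it. Between 27 and 32 of the genes had a negative value under each of the other settings, with 35 to 39 tested. Their median then ranged from -0.34 (without H89 tumor 3) to -0.13 (total count scaling). The members' median ranged from -1.7e-05 (without NaCl tumor 2, with 5 higher and 5 lower) to 0.20 (without H89 tumor 2).

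These 5 genes are feedback regulators and early response factors. Dusp5, a nuclear phosphatase of ERK, was at 54.5, 61.0 and 74.4 CPM in NaCl and at 25.4, 35.5 and 38.1 CPM in H89 tumors (log2 fold change -1.01, standard error 0.15, edgeR adjusted p = 0.0407). Trib1, a pseudokinase, was at 127, 131 and 129 CPM in NaCl and at 75.3, 94.8 and 99.3 CPM in H89 tumors (-0.60, standard error 0.09, edgeR adjusted p = 0.0407). Ier2 was at 68.8, 68.9 and 73.8 CPM against 50.4, 52.7 and 49.4 CPM (-0.54, standard error 0.08, edgeR adjusted p = 0.0407). All 3 H89 tumors, tumor 3 included, lay below all 3 NaCl tumors for each of these genes, as they did for 1312 of the 13118 genes tested. On the same scale Ier5 differed by -0.50 (standard error 0.09, edgeR adjusted p = 0.0479) and Spry4, an inhibitor of receptor tyrosine kinase signalling, by -0.45 (standard error 0.08, edgeR adjusted p = 0.0471), again without overlap. With any 1 of the 6 tumors left out, 0 of the 5 passed an adjusted p of 0.05 (adjusted p from 0.0663 to 0.145), as the number of genes called in all fell to between 0 and 12, while each kept its sign. With all 6 tumors, 0 of the 5 passed with the replicate block (adjusted p = 0.064), 1 under total count scaling (Ier2), a setting chosen after seeing the data, 2 under quantile normalization (Ier2 and Dusp5) and 3 with a mean of at least 5 CPM (Ier2, Dusp5 and Trib1). All 5 passed with no filter, with median ratio normalization, with voom and in DESeq2. With the replicate block the log2 fold changes were -1.02 (Dusp5), -0.60 (Trib1), -0.54 (Ier2), -0.51 (Ier5) and -0.45 (Spry4). Mcl1, the most abundant gene of this list, had a log2 fold change of -0.08 (edgeR adjusted p = 0.664).

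**Figure D4:**
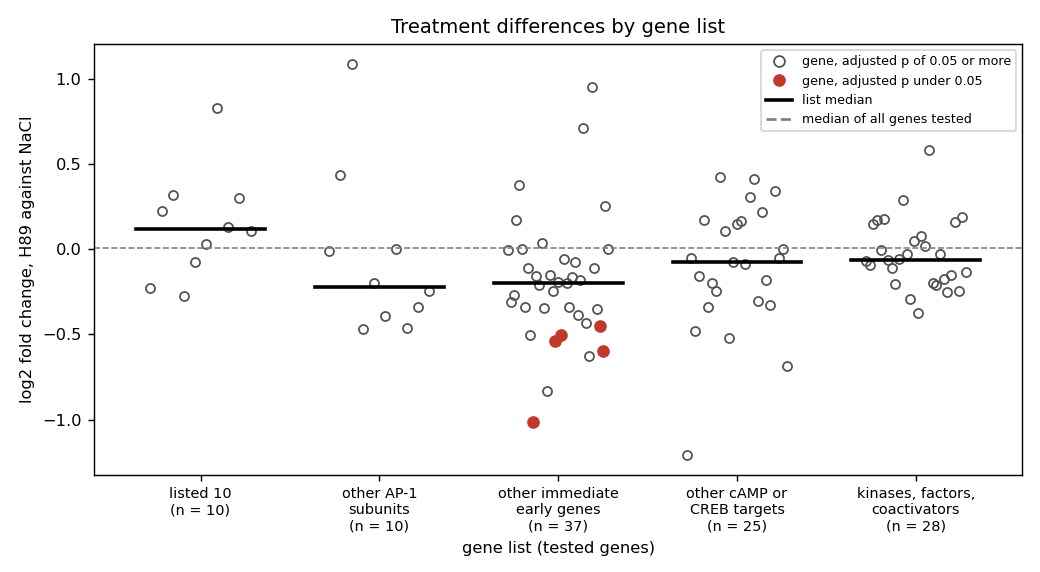
Log2 fold change of each tested gene in the listed 10 and in 4 related lists, with filled red points at an edgeR adjusted p under 0.05, a black bar at each list's median and a dashed line at the median of all genes tested. The 5 filled points all lie in the list of other immediate early genes, between -1.01 and -0.45.

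The other AP-1 subunits held 0 of 10 genes past an edgeR adjusted p of 0.05, and 4 at an unadjusted p of 0.05, which 25.0% of all genes tested passed. Fosl1, the most abundant of them, was at 364, 439 and 332 CPM in NaCl and at 307, 275 and 277 CPM in H89 tumors (log2 fold change -0.47, edgeR adjusted p = 0.0841). Jdp2 had a log2 fold change of -0.40 and Batf3 of 1.09, both without overlap of the groups (edgeR adjusted p = 0.0924 and 0.0977). Among other genes known as cAMP or CREB targets, 25 of 29 were tested and 0 passed an adjusted p of 0.05. At an unadjusted p of 0.05, 4 were lower and 1 higher, against 25.0% of all genes tested in either direction. The median log2 fold change of the list was -0.08. Areg, the EGF receptor ligand amphiregulin, was at 8.84, 11.1 and 15.7 CPM in NaCl and at 4.97, 3.94 and 7.31 CPM in H89 tumors (-1.21, edgeR adjusted p = 0.0659). Pim3 had a log2 fold change of -0.31 (edgeR adjusted p = 0.0851) and Cebpb, the most abundant of this list, of -0.48 (edgeR adjusted p = 0.152).

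The kinases, factors and coactivators that act on these promoters held 0 of 28 tested genes past an edgeR adjusted p of 0.05, with 2 higher and 2 lower at an unadjusted p of 0.05. The unadjusted threshold was passed by 25.0% of all genes tested. Ep300, the coactivator p300, had a log2 fold change of 0.29 (edgeR adjusted p = 0.089). Pkib, a peptide inhibitor of protein kinase A, was at 5.33, 6.47 and 4.45 CPM in NaCl and at 8.23, 9.11 and 8.18 CPM in H89 tumors (0.58, edgeR adjusted p = 0.102). Mapk3, which encodes ERK1 and was the most abundant of them, had a log2 fold change of -0.37 (edgeR adjusted p = 0.108). Among the other salt-inducible kinases, the kinase that activates them and the class IIa deacetylases, 0 of 7 passed an edgeR adjusted p of 0.05. At an unadjusted p of 0.05, 1 was higher (Sik2) and 2 lower (Hdac5 and Hdac4), beside the same 25.0% of all genes. Sik2 was at 25.2, 26.3 and 26.8 CPM in NaCl and at 30.9, 35.6 and 38.0 CPM in H89 tumors (0.34, edgeR adjusted p = 0.0813), while the deacetylases Hdac5, Hdac4 and Hdac7 had log2 fold changes of -0.44, -0.24 and 0.17. Among the other R4 RGS proteins, 0 of 7 tested genes passed even an unadjusted p of 0.05; Rgs1 was at 7.14 CPM in H89 tumor 3 and at 1.52 to 2.12 CPM elsewhere, Rgs4 and Rgs5 had log2 fold changes of -1.11 and -0.50, and Rgs3, the most abundant, of 0.17.

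Heat shock and hypoxia genes were measured as signs of tissue stress. Of 12 heat shock genes, 10 had a negative log2 fold change (83.3%, against 49.4% of all genes tested, median -0.12). None passed an unadjusted p of 0.05 in edgeR's test, against 25.0% of all genes tested. Hspe1, Bag3 and Dnajb1 had the smallest p and Hspa8 was the most abundant. Their mean deviation was 0.02, -0.24 and 0.27 in NaCl and 0.04, -0.30 and 0.21 in H89 tumors 1 to 3, so that both groups held a low tumor 2. Of 12 hypoxia genes 0 passed as well, with Egln3, Adm and Car9 at the smallest p and Ldha the most abundant. Their mean deviation was 0.50, -0.65 and 0.004 in NaCl and 0.09, -0.46 and 0.51 in H89 tumors, again lowest in tumor 2 of each group and high in H89 tumor 3. Whether either bears on the members was not tested.

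The genes whose pattern was most like the members' mean deviation were sought among 10455 genes with a mean of at least 5 CPM. Over the 6 tumors they included Cd300lf, Vdac2, Brd2, Ezh1 and Tmem71, with Pearson r from 0.98 to 0.99 (n = 6 tumors). Cd300lf, an inhibitory receptor of myeloid cells, was at 11.0, 8.90 and 9.93 CPM in NaCl and at 10.1, 10.6 and 24.7 CPM in H89 tumors, with its high value in H89 tumor 3 as for Fosb. After each group's mean was subtracted they were Mlxip, Rftn1, Psmd2, Tmem71, Cd300lf and Fbxo33, with r from 0.99 to 1.00. Such values are the highest of many genes over few tumors and describe these tumors only.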

How the data were processed

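Bulk RNA of 6 CT26 tumors, 3 per group, was analysed, with groups and replicate numbers from the sample labels and the schedule, age and sex from the study's methods. The authors deposited 1 table of estimated counts per gene, made with kallisto on GRCm38 per the submitters' processing notes, which also name DESeq2; versions are not given in the sources used here. The table is called TPM, but its values were read as estimated counts because each tumor's values sum to 27067349 to 31958793 and not to 1000000. A record of the table names 460 gene columns singly, and the other 23097 were read in the same way. Estimated counts were rounded to whole numbers and tested with edgeR 4.0.16 in R 4.3.3 (TMM, glmQLFit, glmQLFTest, treatment as the only term) for genes with a mean of at least 0.5 CPM. Dividing the size of each log2 fold change by the square root of its F gave the standard error, from which the 95% interval was built. Single genes also had an exact two-sided permutation test, whose smallest p is 0.1. The scripts were tested on simulated data, where the share of false calls was above the nominal one.

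Genes named are the members and, from each other list, those past an adjusted p of 0.05, otherwise the 3 with the smallest p, plus the most abundant gene and the 6 genes of most similar pattern, before and after subtracting group means. Cdx1, Cdx2, Vil1, Epcam, Cdh1, Cdh17 and Ly6g, as defining markers, and Cd4 and Cd2, as exceptions in their list, are named outside this rule, after their values were seen. The T cell marker Trac was not analysed here, and 1 gene of similar pattern is not reported here. The members and lists were chosen with earlier results of these data known. The other settings tried were leaving out the expression filter, raising it to 5 CPM, median ratio and quantile normalization (limma 3.58.1), voom, DESeq2 1.42.0, a replicate block and each tumor left out; total count scaling, TMM-scaled CPM and the shortest coding transcript were chosen after seeing the data. Positions and lengths are those of GENCODE M21 on GRCm38, and promoters those of RefSeq on GRCm38.p6. Having 3 tumors per group limits the precision, and 1 count is worth at most 0.0369 CPM at these depths.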

Additional observations from a re-analysis of the deposited data

How the results depend on the processing

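The members past an adjusted p of 0.05 numbered 0 under each setting run, and the genes past an unadjusted p of 0.05 stayed within 1.5 times of 3285. The genes past an adjusted p of 0.05, 208 in edgeR's test, numbered 80 under quantile normalization with limma, 1396 in DESeq2, 0 with the replicate block and between 0 and 12 with 1 tumor left out, where fewer tumors entered. Of the 208, 54.3% were higher with H89, against 46.3% with no filter, 49.0% with median ratio normalization, 49.1% with voom, 49.9% in DESeq2, 62.9% with a mean of at least 5 CPM, 68.8% under quantile normalization and 79.9% under total count scaling. Members past an unadjusted p of 0.05, 1 in edgeR's test, numbered 0 with a mean of at least 5 CPM, under quantile normalization and under total count scaling, and between 0 and 2 with 1 tumor left out (Nr4a3 without NaCl tumor 1, Junb without NaCl tumor 2, Rgs2 without NaCl tumor 3, Egr1 and Junb without H89 tumor 3). Members whose groups did not overlap numbered 0, but 1 (Junb) with TMM-scaled CPM, where 30.7% of all genes did not overlap. The other immediate early genes past an adjusted p of 0.05, 5 in edgeR's test, numbered 3 with a mean of at least 5 CPM, 2 under quantile normalization, 9 in DESeq2 (8 lower, 1 higher), 1 under total count scaling, 0 with the replicate block and 0 with any tumor left out. With 1 tumor left out, the log2 fold change of 5 members changed sign: Nr4a1 ranged from -0.134 to 0.0196 (without NaCl tumor 1), Nr4a2 from -0.105 (without H89 tumor 2) to 0.119, Sik1 from -0.00555 and Per1 from -0.0447 (both without NaCl tumor 2) to 0.231 and 0.285, and Fosb from -0.251 (without H89 tumor 3) to 0.562; Nr4a3 was not tested with a mean of at least 5 CPM. Under total count scaling, the scaling of the printed CPM, the log2 fold change was -0.00094 for Nr4a1 and 0.10 for Nr4a2. It was 0.18 for Sik1, 0.20 for Per1 and -0.15 for Egr1. Under quantile normalization it was 0.01 for Nr4a2, 0.38 for Nr4a3 and 0.10 for Fos. That setting gave 0.14 for Fosb, -0.13 for Egr1 and 0.18 for Rgs2. Otherwise the cause was not tested. The deviations of same-numbered tumors from the group means correlated at 0.16, 0.06 and -0.03 for numbers 1, 2 and 3 over the genes tested. Tumors numbered 1 correlated best with each other, and those numbered 2 and 3 did not. The mean deviations of the heat shock and hypoxia lists were lowest in tumor 2 of each group. With 3 tumors per group, these values cannot show whether same-numbered tumors were paired. The replicate block left Junb at -0.28 (edgeR adjusted p = 0.106). With 3 tumors per group, the widest interval among members was that of Nr4a3, the gene with the fewest counts.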
